A study of Mus musculus with 20 samples.

Results

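The genes described are 9 genes of the skeletal muscle sarcomere, read in total RNA of mouse aortic endothelium: Acta1, Ckm, Myh1, Myh2, Myh4, Tnnt3, Tnni2, Tnnc2 and Mylpf. They were taken by symbol from a table of 32081 genes, and 9 of 9 were found. 8 of them, all but Tnnc2, also had a variance-stabilized value and entered the tests among 16848 genes. They are set beside Myh6 and Tnni3, a myosin and a troponin of the heart.

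The 20 mice were female Apoe-/- animals of the strain B6.129P2-Apoetm1Unc/J, which lack the cholesterol carrier ApoE in every cell, on regular chow. All had 5/6 nephrectomy, a surgical model of chronic kidney disease, at 9 weeks of age, a single retro-orbital treatment 7 weeks later, and collection 1 week after that. Each of the 5 groups held 4 mice: HDL with LNA92a, HDL with LNA489, HDL with both, HDL alone, and saline. HDL was given at 4 mg and each LNA at 20 mg/kg, so mice given both received 40 mg/kg of LNA in all. HDL is high-density lipoprotein, and LNA92a and LNA489 are locked nucleic acid oligonucleotides named for the microRNAs miR-92a and miR-489. No group without surgery, with intact Apoe or with a control LNA was analysed here. Below, LNA92a, LNA489 and Dual stand for the groups given HDL with LNA92a, with LNA489 and with both, and a library is named by its group and animal number. Where values of every library are given, they follow animal numbers 5, 12, 17 and 18 in LNA92a, 7, 13, 14 and 19 in LNA489, 8, 10, 15 and 21 in Dual, 3, 4, 11 and 23 in HDL, and 1, 2, 9 and 24 in Saline.

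Skeletal fibres contract when calcium binds a troponin complex on the actin filament and myosin heads pull on that filament. Fast fibres use their own versions of these parts: troponin T (Tnnt3), troponin I (Tnni2), troponin C (Tnnc2), a regulatory myosin light chain (Mylpf) and the heavy chains of the fibre types IIB (Myh4), IIX (Myh1) and IIA (Myh2). Acta1 is the actin of the skeletal thin filament, also made at lower levels in the heart. Ckm is the muscle creatine kinase that buffers ATP, and whether its reads came from skeletal or heart muscle was not tested. The wall of the aorta holds endothelium, smooth muscle and adventitia but no skeletal fibres, while skeletal muscle and fat lie close to the vessel.

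Promoters are shown because these genes are textbook targets of the muscle transcription factors whose motifs were searched, so the motif shares below are a description. Whether these factors had a part in the levels across the libraries was not tested. RefSeq promoters on GRCm38.p6 were found for 7 of the 9 members. In each, the 250 bases before the annotated start were searched on both strands for the E-box CAGCTG, bound by MyoD-type factors, for the MCAT element CATTCC, bound by TEAD factors, and for the CArG box of SRF and the MEF2 motif. The 4 sequences below run 5′ to 3′ on the gene's strand, and capitals mark the motif matches. Acta1 and Myh4 hold several matches, Mylpf holds 1 and Myh2 holds none.

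Acta1 (chr8:123894776-123895025, - strand): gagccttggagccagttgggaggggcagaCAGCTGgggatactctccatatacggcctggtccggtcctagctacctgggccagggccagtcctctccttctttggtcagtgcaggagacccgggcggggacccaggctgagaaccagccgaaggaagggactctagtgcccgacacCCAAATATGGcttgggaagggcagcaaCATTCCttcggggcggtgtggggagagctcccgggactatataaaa

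Myh4 (chr11:67237562-67237811, + strand): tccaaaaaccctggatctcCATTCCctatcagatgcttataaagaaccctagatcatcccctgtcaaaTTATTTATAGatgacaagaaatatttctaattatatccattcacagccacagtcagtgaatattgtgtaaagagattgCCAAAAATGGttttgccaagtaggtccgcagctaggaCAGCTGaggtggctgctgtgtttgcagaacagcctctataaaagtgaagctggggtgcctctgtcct

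Mylpf (chr7:127211358-127211607, + strand): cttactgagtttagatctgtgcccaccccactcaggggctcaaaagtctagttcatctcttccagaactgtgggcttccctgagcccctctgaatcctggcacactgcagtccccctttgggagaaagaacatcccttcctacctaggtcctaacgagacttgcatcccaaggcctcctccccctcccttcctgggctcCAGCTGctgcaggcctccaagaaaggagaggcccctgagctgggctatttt

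Myh2 (chr11:67170777-67171026, + strand): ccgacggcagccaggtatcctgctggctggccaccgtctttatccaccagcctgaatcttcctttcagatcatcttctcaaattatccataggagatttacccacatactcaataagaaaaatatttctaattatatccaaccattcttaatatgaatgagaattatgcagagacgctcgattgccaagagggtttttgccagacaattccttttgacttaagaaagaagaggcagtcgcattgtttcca

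In Acta1 the matches lay at -221 to -216 (E-box), -73 to -64 (CArG) and -46 to -41 (MCAT), counted from the start. In Myh4, the one member with all 4 motifs, they lay at -231 to -226 (MCAT), -182 to -173 (MEF2), -104 to -95 (CArG) and -67 to -62 (E-box). The Mylpf E-box lay at -51 to -46 from its RefSeq start. The window shown for Mylpf and the one searched for Ckm lie inside the spans of these genes in GENCODE M21, which begin further upstream. Most of the window searched for Tnnc2 and the end of the one searched for Myh1 also lie inside the spans of their genes. The first bases of the Myh4 window overlap an exon of the antisense gene Myhas in GENCODE M21. The E-box was present in 4 of the 7 member promoters and in 13% of 32851 promoters of the same length, and the MCAT element in 3 of 7 and in 12.6%. The CArG box was present in 2 of 7 and in 1.5%, and the MEF2 motif in 2 of 7 and in 2.9%. A match is a description of these letters and not a measured binding site.

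On GRCm38, Myh2 (chr11:67171027-67197517), Myh1 (chr11:67200052-67224575) and Myh4 (chr11:67238029-67260446) stand next to each other on the + strand. Tnni2 (chr7:142441808-142444410) and Tnnt3 (chr7:142498836-142516009) lie near each other, and Ckm (chr7:19404776-19422841) and Mylpf (chr7:127208890-127214298) lie on the same chromosome. Acta1 lies at chr8:123891769-123894751 and Tnnc2 at chr2:164777161-164779967, both on the - strand. The myosins are close copies: of the distinct 50-base stretches of annotated transcripts, 25.4% in Myh1, 22.9% in Myh2 and 18.9% in Myh4 also occur in another gene, mostly in each other, and 20.2% of those in Myh6 occur in Myh7. How reads with several matches were treated is not given in the sources used here, so the split of reads among the myosins is uncertain. The other 6 members share 0 to 2% of such stretches.

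Each library held 11.61 to 21.36 M assigned reads (M, mega) and a read in 17378 to 23365 genes. The labelled tissue was checked first. Pecam1, an endothelial adhesion molecule, was present in 20 of 20 libraries at 10.8 (HDL 4) to 1009 FPKM (HDL 23), fragments per kilobase of gene and M assigned reads. The summed FPKM of 10 endothelial markers ran from 68.3 in LNA92a 5 to 2136 in HDL 23. Markers of other tissues were present too: 8 brown fat genes summed to 21.1 (Saline 9) to 1866 (LNA92a 12), and 6 adrenal cortex genes reached 1887 in Saline 2 against a median of 5.44. LNA489 14 stood apart from the other 19 libraries in the skeletal genes. It ranked first of 20 in all 8 members that were tested.

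The members together had 116 reads in LNA489 13, a median of 2098 and 61221 reads in LNA489 14. Their summed FPKM ran from 5.24 in LNA489 13 to 1476 in LNA489 14, with a median of 71.7. Summed levels were 18.2 to 255 FPKM in LNA92a, 5.24 to 1476 in LNA489, 29.2 to 192 in Dual, 31.3 to 69.0 in HDL and 5.72 to 129.5 in Saline. Every pair of groups overlapped in this sum. In LNA489 13, Saline 9 and Saline 24, all 8 tested members stood among the 5 lowest of the 20 libraries. In bulk RNA, fewer cells of a type and less RNA per cell cannot be told apart.

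**Figure D1:**
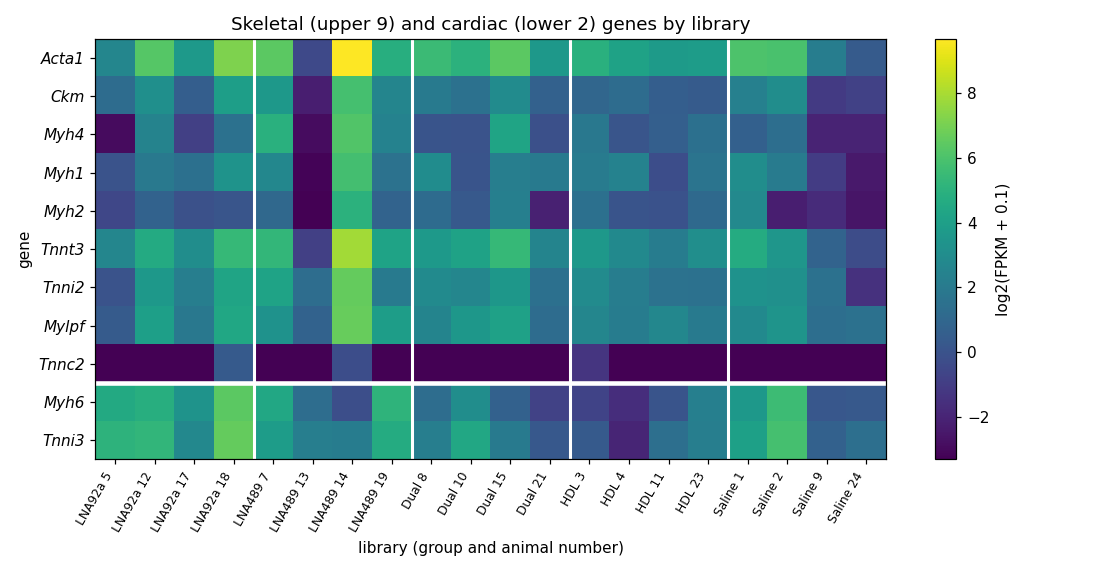
Colour gives log2(FPKM + 0.1) of the 9 skeletal genes (upper rows) and of the cardiac genes Myh6 and Tnni3 (lower rows) in each of the 20 libraries, with white lines between the groups. LNA489 14 is the brightest column in the skeletal rows (Acta1 822 FPKM) and not in the cardiac rows, and Tnnc2 is at 0 in 17 libraries.

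Acta1, the thin filament actin, had the highest mean level of the members. Its FPKM was 6.11, 75.2, 12.9 and 143 in LNA92a and 85.2, 0.637, 822 and 28.5 in LNA489. It was 47.2, 33.2, 83.9 and 12.2 in Dual, 30.5, 18.2, 13.4 and 14.7 in HDL, and 65.4, 62.4, 4.49 and 1.24 in Saline. The 4 HDL libraries lay within 2.28-fold of each other, while the LNA489 libraries spanned 1291-fold and the Saline libraries 52.9-fold. The HDL range lay inside the range of each of the other groups. Acta2, the smooth muscle actin, ranged from 12.0 to 194 FPKM and was 27.1 in LNA489 14, and 2% of the 50-base stretches of Acta1 occur in another gene.

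Ckm, the creatine kinase, followed Acta1. It was 2.31, 8.92, 1.39 and 15.4 FPKM in LNA92a, 12.0, 0.112, 58.3 and 5.94 in LNA489, and 3.83, 2.77, 7.63 and 1.57 in Dual. HDL libraries had 1.86, 2.29, 1.37 and 1.23 FPKM, and Saline libraries had 4.93, 8.21, 0.355 and 0.462. LNA489 14 was the highest and LNA489 13 the lowest, so the extremes of all 20 fell in 1 group. The ratio of Acta1 to Ckm, in the 17 libraries with at least 20 reads of each, ran from 2.65 (LNA92a 5) to 16.4 (HDL 3) with a median of 9.29. Of the exonic bases of Ckm, 15.5% overlap the antisense gene A930016O22Rik, which was at most 0.185 FPKM.

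The troponins of the fast fibre differed from each other in level. Tnnt3, the subunit that ties troponin to tropomyosin, was 6.09, 24.5, 8.23 and 41.4 FPKM in LNA92a, 39.7, 0.453, 238 and 18.3 in LNA489, and 12.8, 17.6, 42.1 and 5.66 in Dual. It was 12.1, 7.15, 4.27 and 8.62 FPKM in HDL and 25.7, 11.3, 1.67 and 0.700 in Saline. Tnni2, the inhibitory subunit, ran from 0.264 FPKM in Saline 24 through a median of 5.41 to 97.2 in LNA489 14. Levels of Tnnt3 were above those of Tnni2 at the median, with a ratio of 2.06 in the 18 libraries with at least 20 reads of each (range 0.189 in LNA489 13 to 4.61 in LNA489 19).

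Tnnc2, the calcium-binding subunit, was barely detected. It had 11 reads in LNA92a 18 (1.18 FPKM), 12 reads in LNA489 14 (0.752 FPKM), 3 reads in HDL 3 (0.304 FPKM) and 0 in the other 17 libraries, where 0 allows up to 0.176 to 0.323 FPKM (3 reads, counting error only). In LNA489 14, Tnni2 stood at 97.2 FPKM, and the ratio of Tnnc2 to Tnni2 was at most 0.0612 in any library. Of the 800 exonic bases of Tnnc2, 592 (74%) lie over exons of Ube2c, a cell cycle gene on the opposite strand that ranged from 0.145 to 5.09 FPKM. The strand used in counting is not given in the sources used here, so the level of Tnnc2 is uncertain, and the part of the overlap in it was not tested.

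Mylpf, the regulatory light chain that sits on the neck of the fast myosins, ran from 1.22 FPKM in LNA92a 5 to 102 in LNA489 14. It was 1.22, 16.3, 3.65 and 21.6 FPKM in LNA92a, 9.86, 1.60, 102 and 15.0 in LNA489, and 5.75, 11.6, 17.3 and 2.33 in Dual. HDL had 6.17, 4.32, 6.36 and 3.88 FPKM, and Saline had 7.18, 10.5, 2.54 and 2.76. The spread within HDL was again the smallest, 1.64-fold.

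**Figure D2:**
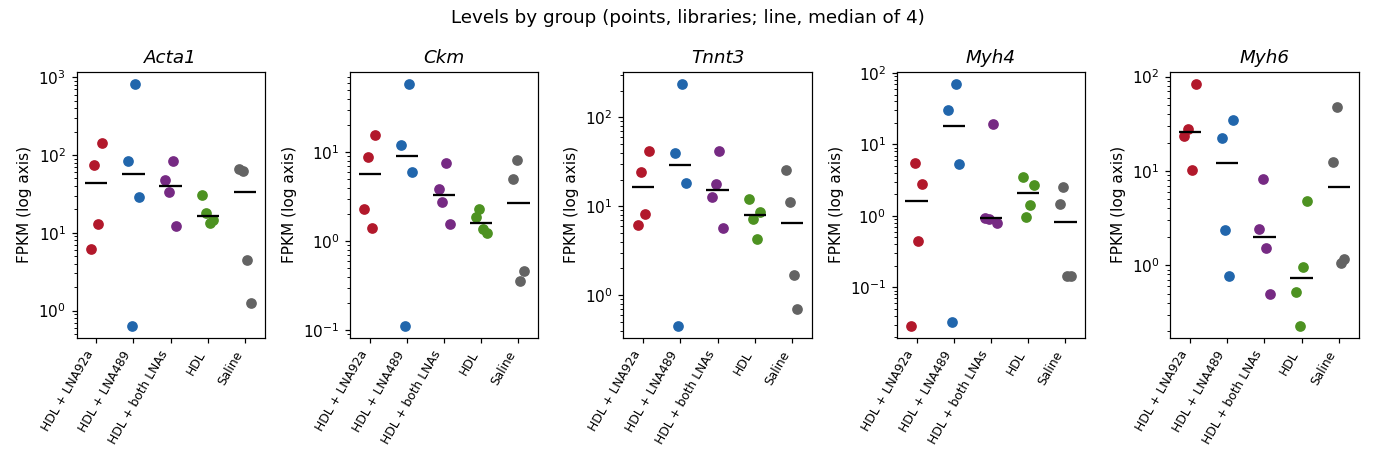
FPKM on a log axis of Acta1, Ckm, Tnnt3, Myh4 and the cardiac gene Myh6, with 1 point for each library and a line at the median of each group of 4. In the 4 skeletal genes the groups overlap and LNA489 spans the widest range, whereas for Myh6 all 4 LNA92a libraries (10.3 to 83.5 FPKM) lie above all 4 HDL libraries (0.228 to 4.79 FPKM).

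The myosin heavy chains varied in make-up as well as in amount. Myh4, the IIB chain of the fastest fibres, was 0.029, 5.58, 0.452 and 2.82 FPKM in LNA92a, 30.3, 0.033, 70.3 and 5.37 in LNA489, and 0.928, 0.918, 19.4 and 0.791 in Dual. It was 3.55, 0.961, 1.44 and 2.69 FPKM in HDL and 1.49, 2.51, 0.143 and 0.145 in Saline. Myh1, the IIX chain, ran from 0.010 (LNA489 13, 1 read) through a median of 3.81 to 55.4 FPKM (LNA489 14). Myh2, the IIA chain of more oxidative fibres, was at 0 in LNA489 13, where 0 allows up to 0.0274 FPKM, and at most 32.3 FPKM, in LNA489 14.

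In the 17 libraries with at least 100 reads over these 3 chains, Myh1 had the highest level in 10, Myh4 in 6 and Myh2 in 1 (Dual 10). The share of Myh4 in their summed FPKM ran from 1.91% (LNA92a 5) to 78.6% (LNA489 7), with a median of 33.9%. In reads, Myh4 took 2859 of 3707 in LNA489 7 (77.1%, Wilson 95% interval 75.7 to 78.5%) and 2 of 117 in LNA92a 5 (1.71%, 0.470 to 6.02%). Myh1 took 396 of 488 reads in Dual 21 (81.2%, 77.4 to 84.4%), and Myh2 took 809 of 1838 in Saline 1 (44.0%, 41.8 to 46.3%) against 12 of 622 in Saline 2 (1.93%, 1.11 to 3.34%). LNA489 14, the library richest in skeletal reads, had a mixed set with 44.5% Myh4, 35.05% Myh1 and 20.5% Myh2 of summed FPKM. These intervals cover counting error only, and these shares were not tested between groups.

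**Figure D3:**
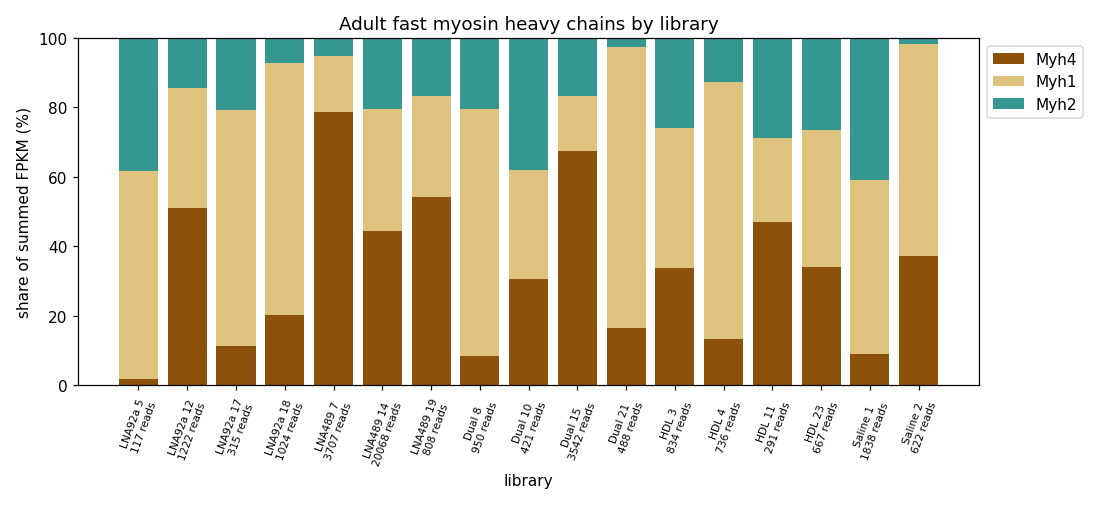
Bars give the percent of Myh4, Myh1 and Myh2 in their summed FPKM in the 17 libraries with at least 100 reads of the 3 genes, with the read number under each name. Libraries of 1 group differ: Myh4 makes up 78.6% in LNA489 7 and 44.5% in LNA489 14, and Myh2 41.0% in Saline 1 and 1.69% in Saline 2.

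LNA92a against HDL asks what LNA92a adds to HDL. Differences are log2, from limma on the deposited variance-stabilized values, with their SE. They were 1.55 ± 1.01 for Ckm, 1.26 ± 1.11 for Tnnt3, 1.13 ± 1.42 for Acta1, 0.79 ± 0.88 for Tnni2, 0.67 ± 0.78 for Mylpf, 0.54 ± 1.26 for Myh1, -0.20 ± 1.18 for Myh2 and -0.41 ± 1.35 for Myh4. The median of the 8 members was 0.725, against -0.056 over all genes tested, and it was 1.271 without LNA92a 5 and 0.269 without LNA92a 18. At a Benjamini-Hochberg adjusted p under 0.05 over all genes, limma called 0 of the 8 members, and the background was 0% (0 of 16848 genes, with 595 at an unadjusted p under 0.05). The smallest adjusted p of a member was 0.867, and 0 members had an unadjusted p under 0.05. In each of the 8 members the libraries of the 2 groups overlapped. Over all genes tested, 0.855% were higher and 1.37% lower in LNA92a with no overlap.

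LNA489 against HDL asks what LNA489 adds to HDL, and the size of its member differences depended on LNA489 14 and LNA489 13. Differences were 1.83 ± 1.35 for Myh4, 1.72 ± 1.01 for Ckm, 1.45 ± 1.11 for Tnnt3, 1.37 ± 0.88 for Tnni2, 1.25 ± 1.42 for Acta1, 1.24 ± 0.78 for Mylpf, 0.45 ± 1.26 for Myh1 and 0.39 ± 1.18 for Myh2. Limma called 0 of 8, with a background of 0%, a smallest adjusted member p of 0.920 and 0 members at an unadjusted p under 0.05. The median was 1.31 against -0.047 over all genes. Without LNA489 14 it was 0.42, and Acta1, Myh1 and Myh2 stood at -0.07, -0.715 and -0.811. Myh4, Ckm, Tnni2, Mylpf and Tnnt3 stayed positive without it, at 0.853, 0.818, 0.508, 0.426 and 0.415. Without LNA489 13, the lowest library, the median was 2.386, and 6 members had an unadjusted p under 0.05 but 0 an adjusted p under it.

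Dual against HDL gave a median of 0.412 against -0.03 over all genes, with Acta1 at 0.86 ± 1.42, Tnnt3 at 0.85 ± 1.11, Ckm at 0.75 ± 1.01 and Myh2 at -0.14 ± 1.18. Against the single inhibitors, the members were at a median of -0.291 in Dual against LNA92a and -0.723 in Dual against LNA489. Neither direction held when single libraries were left out: the median in Dual against LNA489 was 0.2 without LNA489 14, and that in Dual against LNA92a ran from -0.773 to 0.143. The non-additive contrast, Dual minus LNA92a minus LNA489 plus HDL, had a median of -1.514 against 0.065 over all genes, with Ckm at -2.52 ± 1.42. Its median was -0.534 without LNA489 14, -1.008 without LNA92a 18 and -2.647 without LNA489 13, and on log2(FPKM + 0.1) it was -0.91. In each of these 4 comparisons limma called 0 of 8 members and the background was 0%. These comparisons share libraries with the 2 before them, so their values are not independent.

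HDL against Saline asks what HDL alone does. Differences were 1.09 ± 1.18 for Myh2, 1.07 ± 1.35 for Myh4, 0.74 ± 1.26 for Myh1, 0.36 ± 1.11 for Tnnt3, 0.24 ± 1.42 for Acta1, 0.05 ± 0.88 for Tnni2, -0.02 ± 0.78 for Mylpf and -0.26 ± 1.01 for Ckm. The median was 0.302 against 0.028 over all genes, it ran from -0.261 to 1.036 on leaving out single libraries, and 0 of 8 members were called by limma, with a background of 0%. The F-test over the 5 groups also called 0 of 8, with a background of 0%. In all 8 tests 0 members had an unadjusted p under 0.05, and limma with array quality weights and with voom called 0 members too. At an unadjusted p under 0.05, voom had 0 members in each test and array quality weights had 2 in LNA489 against HDL, 1 in the non-additive contrast and 0 in the others. Saline held both high and low libraries for Acta1, 65.4 and 62.4 against 4.49 and 1.24 FPKM, on either side of all 4 HDL libraries.

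**Figure D4:**
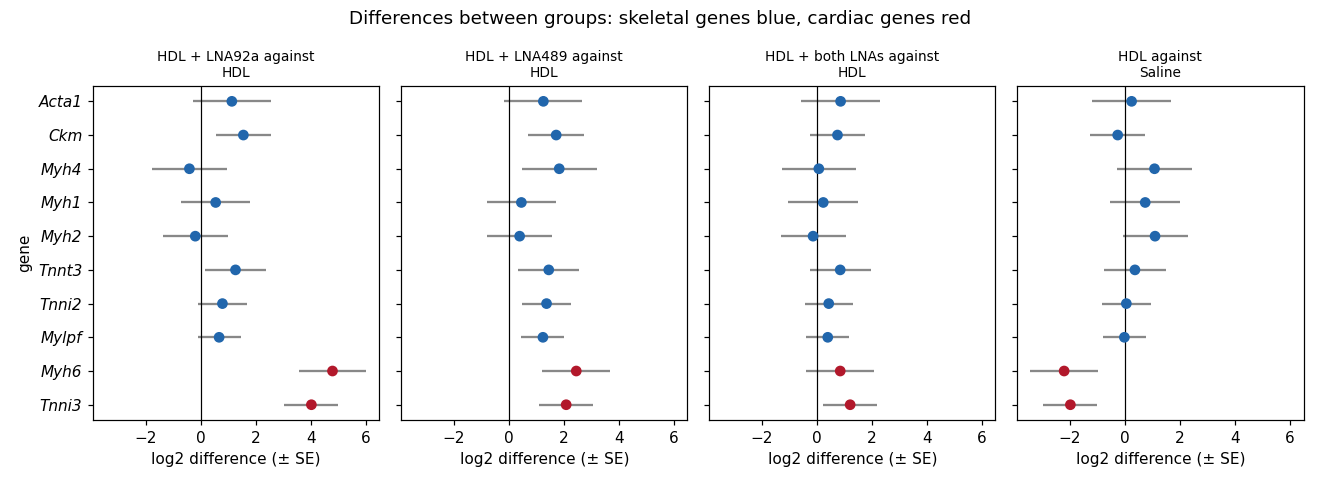
Points give log2 differences of mean variance-stabilized values from limma, with bars of ± 1 SE, for the 8 tested skeletal genes (blue) and for Myh6 and Tnni3 (red) in 4 comparisons. The skeletal points lie between -0.41 and 1.83, while Myh6 is at 4.78 and Tnni3 at 4.01 in LNA92a against HDL and at -2.21 and -1.98 in HDL against Saline.

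The libraries of the 2 groups overlapped in each of the 8 members in the other pairwise comparisons too. Over all genes tested, 0.415% were higher and 1.13% lower with no overlap in LNA489 against HDL, 0.748% and 1.13% in Dual against HDL, and 0.629% and 0.344% in HDL against Saline. These shares were 1.77% and 1.07% in Dual against LNA92a, and 0.629% and 0.712% in Dual against LNA489.

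Ordered by mean variance-stabilized value, LNA489 came first for 7 of the 8 members and LNA92a for Myh1. That order rested in part on LNA489 14: without it, LNA489 minus HDL was -0.07 for Acta1, -0.715 for Myh1 and -0.811 for Myh2. Saline came last for Acta1, Tnnt3, Tnni2 and the 3 myosins, and HDL for Ckm and Mylpf. In no member did neighbouring groups in that order differ by more than both of their SDs. Differences among group means made up 6.74 to 21.9% of the variance of a member among libraries, and 49.3% for Myh6 and 50.03% for Tnni3. Means of 4 libraries differ by chance too, so such shares lie above 0 with no group effect. In the F-test over the 5 groups the members had an unadjusted p from 0.319 (Myh4) to 0.856 (Myh1). Myh6 had 0.0115 and Tnni3 0.0105 in the F-test, both with an adjusted p of 0.9997.

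Myh6, the alpha heavy chain of heart muscle, was 23.4, 28.1, 10.3 and 83.5 FPKM in LNA92a, 22.1, 2.37, 0.766 and 34.9 in LNA489, and 2.40, 8.17, 1.54 and 0.497 in Dual. It was 0.523, 0.228, 0.948 and 4.79 FPKM in HDL and 12.3, 48.1, 1.06 and 1.16 in Saline. The highest library was LNA92a 18, and LNA489 14, first for every tested skeletal member, was the fourth lowest. Tnni3, cardiac troponin I, was 6.72 to 98.7 FPKM in LNA92a, 4.25 (LNA489 14) to 25.2 in LNA489, 1.11 to 22.4 in Dual, 0.152 to 4.55 in HDL and 1.56 to 57.0 in Saline.

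In LNA92a against HDL, Myh6 was at 4.78 ± 1.23 (unadjusted p = 0.00104, limma adjusted p = 0.867) and Tnni3 at 4.01 ± 0.98 (unadjusted p = 0.000641, limma adjusted p = 0.867). Neither passed the threshold, and neither overlapped between the groups, which 0.855% of genes tested did in that direction. In LNA489 against HDL they were at 2.45 ± 1.23 and 2.08 ± 0.98, and without LNA489 14 at 3.37 and 2.46 (limma adjusted p = 0.989 for both). In HDL against Saline they were at -2.21 ± 1.23 and -1.98 ± 0.98.

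Within a library, Acta1 stood at 0.261 times the level of Myh6 in LNA92a 5 and at 0.268 times in LNA489 13, against 1073 times in LNA489 14 and 79.9 times in HDL 4. Tnni2 stood at 0.0272 times Tnni3 in LNA92a 5 and at 29.3 times in HDL 4. The difference of a member minus a cardiac gene on the variance-stabilized scale was compared between groups by a 2-sided exact permutation test, whose smallest possible p with 4 against 4 is 0.0286. In LNA92a against HDL all 16 such differences were negative, from -5.19 to -2.47, and 15 of 16 reached that smallest p. With 1 LNA92a library left out, 4 (without LNA92a 5), 5 (without LNA92a 18), 7 (without LNA92a 12) or 8 (without LNA92a 17) of the 16 passed 0.05. With 4 against 4 as with 3 against 4, only the most extreme split can pass 0.05, so the count depended on single LNA92a libraries. The median of the 16 differences was -3.587, and from -4.254 to -3.1 on leaving out single libraries. Acta1 minus Myh6 averaged -1.82 ± 1.36 in LNA92a and 1.83 ± 1.69 in HDL (SD, n = 4 each).

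In LNA489 against HDL the 16 differences ran from -2.06 to -0.25 and 0 passed 0.05, and in Dual against HDL they ran from -1.35 to 0.01 and 0 passed. In HDL against Saline they ran from 1.72 to 3.30, and 2 of 16, Myh4 minus Myh6 at 3.28 and Myh4 minus Tnni3 at 3.05, reached the exact permutation p of 0.0286. In that comparison 7 passed without HDL 23, 4 without HDL 11 and 1 without Saline 2 or Saline 24, and in LNA489 against HDL 2 passed without LNA489 14. Adjusted over all 64 tests the smallest p was 0.108 and 0 passed. The 16 differences of a comparison share their libraries and the 2 cardiac genes, and those genes were picked with their difference in LNA92a against HDL known, so these tests are not independent evidence.

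**Figure D5:**
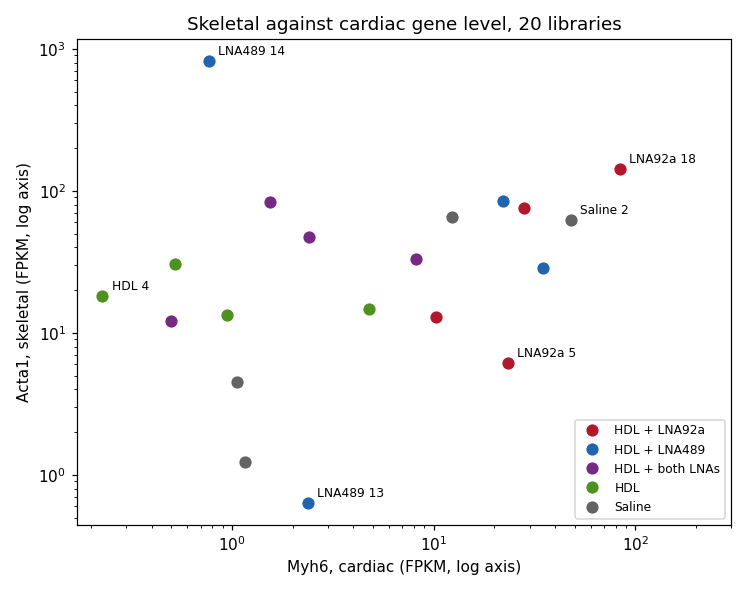
Each point is 1 of the 20 libraries, with Myh6 FPKM across and Acta1 FPKM up, both on log axes, coloured by group. LNA489 14 lies at 822 FPKM of Acta1 with 0.766 of Myh6, and LNA92a 5 at 6.11 of Acta1 with 23.4 of Myh6.

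Across the 20 libraries, correlations among members are given as a description, since all of them share each library's depth and were chosen as genes of 1 tissue. The 28 pairs of members had Pearson's r from 0.715 to 0.970 with a median of 0.855, and without LNA489 14 from 0.565 to 0.958 with a median of 0.794. With Myh6 the 8 members had r from 0.038 to 0.453 (median 0.261), and with Tnni3 from 0.081 to 0.521 (median 0.34). The highest, Ckm with Tnni3, had r = 0.521 (permutation p = 0.019, adjusted 0.180) and Spearman's rho = 0.568 (permutation p = 0.00954, adjusted 0.154). It was 0.398 without the 2 libraries farthest in Tnni3 (Saline 2 and LNA92a 18) and 0.456 with group means removed. Of the 19 relations in this family, 0 passed an adjusted p of 0.05.

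That outcome rested on LNA489 14. Without it, a choice made after the values were seen, 10 of the 19 relations passed, among them Ckm with Myh6 (r = 0.710, permutation p = 0.00091, adjusted 0.00959), Ckm with Tnni3 (r = 0.698, permutation p = 0.00101, adjusted 0.00959) and Acta1 with Myh6 (r = 0.546, permutation p = 0.0161, adjusted 0.0362). The 10 also include a relation with no cardiac gene, Acta1 with the brown fat gene Ucp1 (r = 0.571, permutation p = 0.0112, adjusted 0.0309). The myosins Myh1, Myh2 and Myh4 did not pass with either cardiac gene, with r from 0.182 to 0.387. Over all 20 libraries, Acta1 had r = 0.560 with Ucp1 (permutation p = 0.0094, adjusted 0.179, rho = 0.501), -0.353 with Pecam1 (permutation p = 0.127) and -0.060 with Acta2 (permutation p = 0.800). In LNA489 14, Ucp1 was 601 FPKM, the summed level of 7 fibroblast markers was 2783 FPKM, the highest of 20, and Pecam1 was 38.6 FPKM. Most of that sum was Dcn, at 2043 FPKM, while Pdgfra, Lum, Col1a1, Col1a2, Dpt and Pi16 were each highest in LNA92a 12. LNA489 14 ranked 2 of 20 in Pdgfra, Lum, Col1a1, Col1a2 and Dpt, and 3 of 20 in Pi16. Whether these other tissues had a part in the skeletal levels was not tested.

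Among the 16840 other genes tested, the 10 most like the mean of the 8 members by Pearson's r over the 20 libraries were Myot (0.965), Atp2a1 (0.952), Neb (0.950), Mybpc1 (0.924), Nrap (0.922), Myoz1 (0.916), Xirp2 (0.916), Cacna1s (0.902), Cmya5 (0.898) and Jph1 (0.897). Myot and Myoz1 are proteins of the Z-disc, Neb is the thin filament ruler nebulin, Atp2a1 is the calcium pump of fast fibres and Cacna1s the voltage sensor of the skeletal calcium channel. All 10 were highest in LNA489 14, and without it their r lay between 0.848 (Cacna1s) and 0.946 (Myot). Myh7, the slow and beta-cardiac heavy chain, ranked 20 of 16840 (0.852), while Tnnc1 ranked 1118 (0.575), Actc1 2454 (0.452), Tnni3 3765 (0.322) and Myh6 4247 (0.268).

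Other muscle genes were read through lists. Of 12 further fast-fibre genes, 10 were highest in LNA489 14. The calcium pump Atp2a1 was 135 FPKM there against a median of 5.74, the essential light chain Myl1 98.0 against 10.6, the glycolytic enzyme Pgam2 43.5 against 6.97, and the calcium buffer parvalbumin Pvalb 46.5 against 1.53. In LNA489 against HDL, limma called 0 of the 10 tested, and 1 had an unadjusted p under 0.05.

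Of 11 slow-fibre genes, 6 were highest in LNA489 14 and 4 in LNA92a 18. The slow and cardiac troponin C, Tnnc1, was 21.9 FPKM in LNA92a 18 and 9.87 in LNA489 14, Myoz2 was 14.4 and 9.36, and the light chain Myl3 was 8.59 and 8.24. Tpm3, a tropomyosin also made outside muscle, ranged only from 15.0 to 51.9 FPKM and was highest in HDL 11. Myh7 was 6.88 FPKM in LNA489 14 and 0.361 in LNA92a 18.

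Of 12 genes of excitation and calcium release, 8 were highest in LNA489 14. Trdn, the triadin of the release complex, was 8.40 FPKM there against a median of 0.638, Cacna1s 5.31 against 0.155 and the channel subunit Cacnb1 2.70 against 1.10. Chrnb1, a subunit of the acetylcholine receptor, was highest in HDL 23 at 15.4 FPKM. Of 18 measured sarcomere and energy genes that striated muscles share, 14 were highest in LNA489 14. Tpm2 was 137 FPKM there against 23.8 in LNA92a 18, while the oxygen carrier myoglobin (Mb) was 128 and 127 and the Z-disc gene Tcap 66.9 and 73.3. Cox8b, a cytochrome oxidase subunit of heart, muscle and brown fat, was highest in LNA92a 12 at 552 FPKM.

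Genes of muscle precursors were close to absent. Over all 20 libraries Pax7, the marker of satellite cells, had 12 reads, Myod1 had 9, Myog had 1, Myf5 had 33, Myf6 had 55 and the embryonic chain Myh3 had 5. Myh8, the perinatal heavy chain, reached 4.95 FPKM in LNA92a 18 and 4.52 in LNA489 14 with a median of 0.0065, and part of its sequence occurs in Myh1, Myh2 and Myh4. Vgll2, a muscle cofactor of TEAD factors, was highest in LNA489 14 at 3.11 FPKM. Mef2c, which other cells also make, was highest in HDL 11 at 22.0 FPKM.

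Of 20 heart genes, 14 were highest in LNA92a 18 and 2 in LNA489 14. The atrial light chain Myl7 was 307 FPKM in LNA92a 18 and 13.5 in LNA489 14, cardiac actin Actc1 was 194 and 15.5, and sarcolipin Sln was 109 and 27.0. LNA92a 18 was also second of the 20 libraries in Acta1, at 143 FPKM. Over the 5 lists of skeletal or shared muscle genes limma called 0 genes in any of the 7 pairwise and non-additive comparisons, where the background was 0%. In LNA92a against HDL, 2 of 10 fast-fibre, 4 of 9 slow-fibre and 7 of 17 shared genes tested had an unadjusted p under 0.05. So did 1 of 5 excitation genes, 1 of 3 precursor genes and 14 of 16 heart genes, all of them higher. Over all genes tested it was 595 of 16848, and the genes of a list share their libraries. HDL against Saline had 0 in each of these lists.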

How the data were processed

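Total RNA of aortic endothelium, collected with qiazol per the labels' protocols, was sequenced in 20 mice after library preparation with a Nugen Ovation kit. The authors deposited FPKM for 32081 genes with symbols and gene lengths, and, for 20442 genes, log2 values of variance-stabilized read counts, whose lowest value is 4.21. The submitters' processing notes name build GRCm38.p5 and, with no roles, DESeq2 1.18.1, STAR 2.5.3a, cutadapt 1.16, FastQC and featureCounts 1.15.29. The annotation release, the strand and the handling of multi-mapping reads are not given in the sources used here.

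Whole reads were recovered from FPKM and gene length. Among values of at most 1000 reads in genes no longer than 3000 bases, 100% lay within 0.1 of a whole number. They gave depths of 11.61 to 21.36 M reads. FPKM is divided by all assigned reads. The median difference over all genes for LNA92a and LNA489 against HDL was -0.471 and -0.104 on log2(FPKM + 0.1), and -0.056 and -0.047 on the variance-stabilized scale, which was used. That scale compresses differences of weakly expressed genes.

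Genes with a mean FPKM of at least 0.5 (16848) entered a limma fit (version 3.58.1, R 4.3.3) with 5 group means, a mean trend and no covariates, with calls at p under 0.05 after Benjamini-Hochberg adjustment. Each member minus each cardiac gene was compared by exact permutation. Correlations used 100000 permutations in SciPy 1.17.1. All tests were 2-sided. The scripts were tested on simulated data. The labels number separate animals, and no batch or date is given. Alternatives were log2(FPKM + 0.1), log2(FPKM + 1), no FPKM minimum, a minimum of 1, array quality weights, voom on recovered reads, only the 2 groups compared, and leaving out each library.

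Positions and overlaps come from GENCODE M21 on GRCm38, in which 31929 of the 32081 gene IDs were found, and promoters from RefSeq on GRCm38.p6. Named beside the members, Myh6 and Tnni3 are up to 4 genes of each muscle list with the highest mean FPKM and the 10 genes most like the members. Myh7, Tnnc1, Actc1, Acta2, Ucp1, Pecam1, the precursor genes and genes given for an overlap were named for comparison. The members and gene lists were chosen with earlier results of these data known. 1 gene that this rule would name is not reported here.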

Additional observations from a re-analysis of the deposited data

Results flagged for a closer look

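Samples far from the others of their group of 4 were looked for in each gene and group. FPKM was used, which runs to high extremes. The chance rate of 1 in 20 for Dixon's 95% critical value holds for normally distributed values, so the count cannot be set against it. On the variance-stabilized scale, Acta1 was 11.1, 5.35, 13.9 and 9.45 in LNA489, with LNA489 13 lowest and LNA489 14 highest. In 13 of 53 groups of 4 the FPKM gap to the nearest other library passed that critical value. Of these, 7 fell in LNA489 14: Acta1 at 822.211 FPKM (next in its group 85.2), Tnnt3 at 237.664 (39.7), Mylpf at 101.628 (15.0), Tnni2 at 97.178 (18.5), Myh1 at 55.416 (6.28), Myh2 at 32.345 (2.00) and Tnnc2 at 0.752 (0 in the other 3). They come from 1 library and are not separate observations.

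Among the other groups, Myh4 was 19.375 FPKM in Dual 15 (next 0.928), and that library also had the highest Acta1 of Dual. Myh2 was 6.806 FPKM in Saline 1 (next 0.201). Tnnc2 was 1.183 FPKM in LNA92a 18 and 0.304 in HDL 3, on 11 and 3 reads, with 0 in the other libraries of each group. With all others at 0, any read passes the critical value, so the Tnnc2 flags, also that in LNA489 14, were fixed by the zeros. Of the cardiac genes, Myh6 was 4.794 FPKM in HDL 23 (next 0.948) and Tnni3 was 22.401 in Dual 10 (next 4.68).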

How the results depend on the processing

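No paired analysis was possible because no animal number occurs in 2 groups. Over 982 alternative values, 913 were counted as the same. Differences and correlations had to keep their direction and side of the threshold, and medians over the members to move by less than the spread between replicates. Counts had only to stay near the main count, such as 14 against 15. Medians of member minus cardiac differences had only to keep their sign, and that in LNA489 against HDL (-0.921) ran from -2.711 to -0.163. Medians over the members counted as the same include some that changed sign. These were Dual against LNA489 without LNA489 14 (0.2), Dual against LNA92a leaving out single libraries (up to 0.143) and on log2(FPKM + 0.1) (0.15), and HDL against Saline leaving out single libraries (down to -0.261). In 138 recounts, limma called 0 members, the most at an unadjusted p under 0.05 was 6, and the smallest adjusted p of a member was 0.224. With array quality weights, 3208 genes had an unadjusted p under 0.05 in LNA92a against HDL (595 without weights) and 3169 in LNA489 against HDL (638 without), with 0 called. Depth limits Tnnc2, and the lowest libraries hold too few myosin reads for shares.

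Of 480 member differences, 38 changed sign, 28 of them on leaving out 1 library. With voom, LNA489 against HDL was -0.201 for Myh1 and -0.501 for Myh2, Dual against HDL was -0.014 for Myh4, and HDL against Saline was 0.224 for Ckm and 0.19 for Mylpf. With array quality weights, Dual against HDL was -0.122 for Myh1 and -0.541 for Myh4. On log2(FPKM + 1), Myh2 in Dual against HDL was 0.036 and Mylpf in HDL against Saline 0.034, and on log2(FPKM + 0.1) that Mylpf value was 0.074 and r of Myh2 with Myh6 was -0.009. The causes were not tested.

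Leaving out each library in turn, LNA92a against HDL ran from -0.012 to 0.995 for Myh1, from -0.447 to 0.035 for Myh2 and from -1.034 to 0.365 for Myh4. LNA489 against HDL ran from -0.07 to 2.788 for Acta1, from -0.715 to 1.812 for Myh1 and from -0.811 to 1.617 for Myh2. Dual against HDL ran from -0.322 to 0.784 for Myh1, from -0.689 to 0.544 for Myh2 and from -0.942 to 0.457 for Myh4. HDL against Saline ran from -0.671 to 0.987 for Acta1, -0.779 to 0.325 for Ckm, -0.044 to 1.539 for Myh1, -0.265 to 1.086 for Tnnt3, -0.586 to 0.468 for Tnni2 and -0.278 to 0.289 for Mylpf.

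Of the 16 member minus cardiac differences, the count at an exact p under 0.05 ran from 4 to 14 in LNA92a against HDL (4 without LNA92a 5, 5 without LNA92a 18, 7 without LNA92a 12, 8 without LNA92a 17). It ran from 0 to 2 in LNA489 against HDL (2 without LNA489 14) and from 1 to 7 in HDL against Saline (7 without HDL 23, 4 without HDL 11, 1 without Saline 2 or Saline 24). The median of the 16 differences ran from -4.254 to -3.1 in LNA92a against HDL. In Dual against HDL it ran from -1.205 to 0.166, positive without Dual 10. Without LNA489 14, 10 of the 19 relations passed, Acta1 with Ucp1 among them, and r of Acta1 with Acta2 was 0.06.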
